A study of Mus musculus with 30 samples.

Results

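CDC-like kinases (CLKs) and SR splicing factors act together on pre-mRNA, and their transcripts were followed here in mouse sperm. The set holds 10 genes, the kinases Clk1, Clk2, Clk3 and Clk4, the SR protein genes Srsf2, Srsf5, Srsf6, Srsf7 and Srsf11, and the SR-like gene Tra2a. The set was selected on the difference between tesaglitazar- and vehicle-injected males at 24 h, because Clk4 had a small p there, so every value of that contrast is given as a description. All 10 were found among the 16242 features measured at 24 h, and 6 of the 10 among the 3082 features measured at 46 days.

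SR proteins bind exonic sequences of a pre-mRNA and recruit the splicing machinery to nearby splice sites. CLKs are nuclear dual-specificity kinases that phosphorylate the arginine- and serine-rich domains of SR proteins, which releases these from nuclear speckles.

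C57Bl/6J males aged 3 months were injected i.p. 2 times per week for 4 weeks with tesaglitazar, an agonist of PPARα and PPARγ, at 10 μg per kg body weight (Tesa-inj), or with DMSO in saline (Vehicle-inj). Sperm that swam out of the cauda epididymis was treated with a somatic cell lysis buffer before RNA extraction. At 24 h after the last injection, polyadenylated RNA of 4 Tesa-inj and 4 Vehicle-inj samples was sequenced, and at 46 days rRNA-depleted total RNA of 7 and 7 samples. Time point and library type therefore cannot be told apart.

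The libraries at 24 h held 15337589 to 27709990 estimated counts, of which the 10 genes took 5531 to 16087. At 46 days the totals were 4538102 to 13513816 counts, but the 5 most abundant features took between 26.0% and 98.2% of them, and the 6 genes present took between 78 counts, in Tesa-inj library KG8-02, and 6766, in Vehicle-inj library KG8-14. Tesa-inj library KG8-12 followed KG8-02 with 127 counts on these genes, and results at 46 days are given with and without this pair of libraries. Values are CPM (counts per 1000000 of the library size, scaled by TMM), and TMM sets the bulk of features equal between libraries. In two-sided exact permutation tests of the difference in means, total counts did not differ beyond the spread between libraries (p = 0.286 at 24 h and p = 0.284 at 46 days), nor did the number of features with more than 20 counts (p = 0.514 and p = 0.0723 in the same exact tests). At 46 days counts outside the 5 most abundant features averaged 969300 ± 1026000 in Tesa-inj and 1990000 ± 2306000 in Vehicle-inj (SD). These 5 features took a mean of 88.22% and 74.99% of the total. The same exact tests gave p = 0.379 and p = 0.269. Features with more than 20 counts averaged 1993 and 2672 at 46 days. At 24 h counts outside the 5 averaged 11130000 and 8902000 (p = 0.486, same exact test). These tests do not show that depth was equal.

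Clk4 encodes a kinase that phosphorylates SR proteins, and it is the gene whose contrast at 24 h led to the set. In Tesa-inj sperm it was measured at 10.7 CPM in library ai_1, 13.9 in ai_3, 11.8 in ai_5 and 17.3 in ai_7. In Vehicle-inj sperm it was measured at 22.6 CPM in library ai_2, 23.3 in ai_4, 22.02 in ai_6 and 25.3 in ai_8. All 4 Tesa-inj libraries lay below all 4 Vehicle-inj libraries, and ai_7 was the nearest to them. The means were 13.4 CPM ± 2.92 (SD, n = 4) and 23.3 ± 1.43 (SD, n = 4), and the fitted log2 fold change was -0.79 (standard error, SE, 0.23). Of all 13752 features tested at 24 h, 1.95% had every Tesa-inj library below every Vehicle-inj library, and since Clk4 was chosen on this contrast nothing is read from its being among them. In bulk RNA, fewer cells that carry a transcript and less of it per cell cannot be told apart.

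The separation of the Clk4 values depended on the scaling. On library totals, without TMM factors, ai_7 had 27.3 CPM, above Vehicle-inj libraries ai_2 with 17.4, ai_4 with 18.8 and ai_6 with 23.4. The other 3 Tesa-inj libraries, with 8.76 to 13.2, lay below every Vehicle-inj library on that scale, on which 0.574% of all tested features were separated in full. With these totals the median log2 fold change of all features moved from -0.02 to 0.19, and that of Clk4 became -0.52.

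Ratios of counts within a library do not change with any scaling. The ratio of Clk4 to Srsf11 was 0.322 to 0.510 in Tesa-inj, against 0.703 to 0.961 in Vehicle-inj, and that of Clk4 to Srsf2 was 0.233 to 0.350 and 0.423 to 0.560. These were the 2 of 9 ratios of Clk4 to another member that did not overlap between the groups, beside 20% (2757) of all 13751 other features, so nothing is read from them. The ratio of Clk4 to Clk1 was 0.409 to 0.675 in Tesa-inj, against 0.667 to 1.17 in Vehicle-inj, an overlap of Tesa-inj library ai_7 with Vehicle-inj library ai_2 only. The ratio of Clk4 to Tra2a was 2.93 in Tesa-inj library ai_1, on 59 counts of Tra2a. The 3 other Tesa-inj libraries had 1.23 to 1.59, and Vehicle-inj 0.874 to 1.83. The groups overlapped, as did those of the ratios to Clk2, Clk3, Srsf5, Srsf6 and Srsf7.

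The other 3 kinases did not separate the groups at 24 h. Clk1, the paralog of Clk4, was measured in Tesa-inj at 26.1 CPM in ai_1, 26.6 in ai_3, 24.3 in ai_5 and 25.7 in ai_7. In Vehicle-inj it had 33.8 CPM in ai_2, 32.4 in ai_4, 18.8 in ai_6 and 33.8 in ai_8. Library ai_6 stood apart as the lowest of all 8, while the other 3 Vehicle-inj libraries lay above every Tesa-inj library. The log2 fold change of Clk1 was -0.21 (SE 0.23), and it was 0.03 with library totals, -0.38 without ai_6 and -0.13 without ai_2. Clk2 ran from 45.0 to 62.4 CPM in Tesa-inj and from 40.9 to 85.1 in Vehicle-inj, at a log2 fold change of -0.04 (SE 0.27), which was 0.21 with library totals, 0.26 without ai_2 and -0.16 without ai_6. Clk3, a kinase abundant in testis, ran from 45.9 to 52.1 CPM and from 34.6 to 74.5, at a log2 fold change of 0.0036 (SE 0.25), which was 0.25 with library totals and ranged from -0.12 without ai_4 to 0.28 without ai_2. For both genes the Tesa-inj values fell inside the range of the Vehicle-inj values, whose highest library was ai_2.

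**Figure D1:**
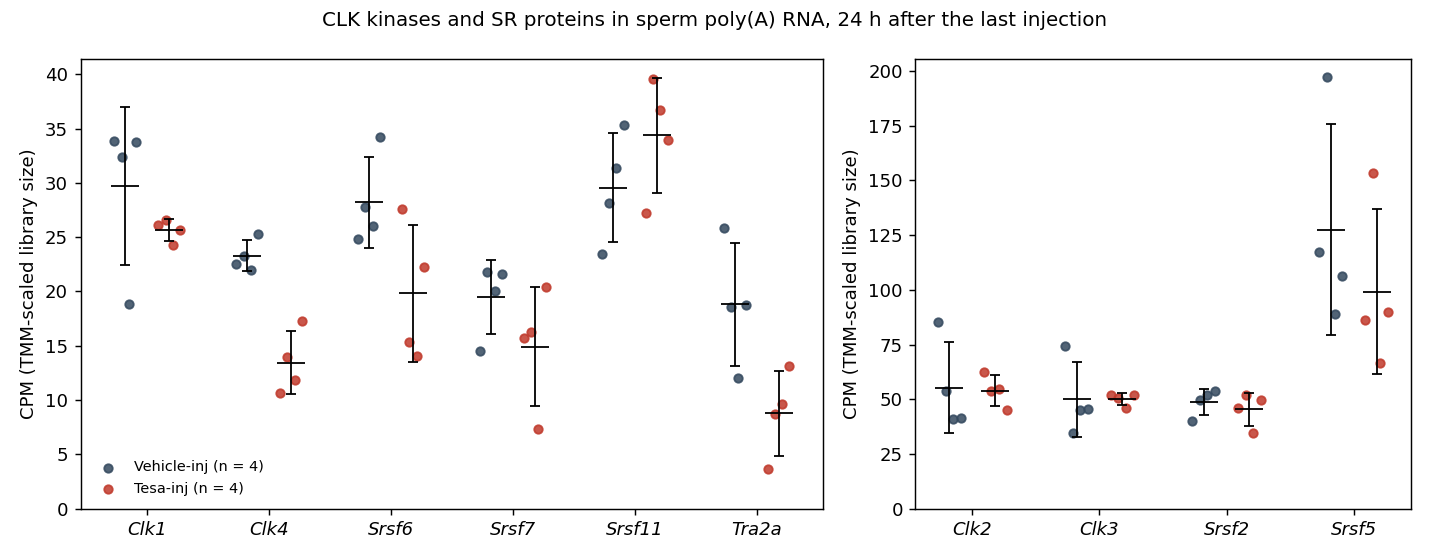
CPM (y axes, TMM-scaled) of the 10 genes in each sperm library at 24 h, with the mean and SD of each group (n = 4 and 4). Clk4 is the gene whose groups do not overlap on this scale, with at most 17.3 CPM in Tesa-inj and at least 22.02 in Vehicle-inj.

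Tra2a encodes a sequence-specific activator of splicing that pairs with SR proteins. In Tesa-inj it was measured at 3.64 CPM in ai_1, 8.74 in ai_3, 9.61 in ai_5 and 13.2 in ai_7, on 59, 202, 195 and 573 counts. In Vehicle-inj it had 25.8 CPM in ai_2, 18.6 in ai_4, 12.0 in ai_6 and 18.8 in ai_8. The groups overlapped through ai_7 and ai_6, and the other 3 Tesa-inj libraries were below every Vehicle-inj library. The log2 fold change of -1.09 (SE 0.39) was the lowest of the 10 genes, and with library totals it was -0.71.

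Among the classical SR proteins, Srsf6 had 27.6 CPM in ai_1, 15.3 in ai_3, 14.1 in ai_5 and 22.3 in ai_7 of the Tesa-inj group. Its Vehicle-inj values were 24.8 CPM in ai_2, 27.7 in ai_4, 26.0 in ai_6 and 34.2 in ai_8. Library ai_1, the lowest for Clk4 and Tra2a, was the highest Tesa-inj library for Srsf6 and made the groups overlap. Srsf7 ran from 7.34 to 20.4 CPM in Tesa-inj and from 14.5 to 21.8 in Vehicle-inj, and Srsf5 from 66.8 to 153.5 and from 89.0 to 197.5. Srsf2, which binds exonic enhancers and stays mainly in the nucleus, ran from 34.6 to 51.8 CPM and from 40.3 to 53.6. Srsf11, a protein of the nuclear speckles, was the member with the highest fold change, running from 27.3 to 39.6 CPM and from 23.5 to 35.3. The log2 fold changes were -0.51 (SE 0.26) for Srsf6, -0.38 (SE 0.32) for Srsf7, -0.36 (SE 0.33) for Srsf5, -0.11 (SE 0.21) for Srsf2 and 0.22 (SE 0.21) for Srsf11. With library totals these were -0.31, -0.13, -0.12, 0.10 and 0.41. The groups overlapped for each of these 5 genes. Single libraries moved these values: Srsf5 was -0.65 without ai_3, -0.05 without ai_4 and -0.20 without ai_5, Srsf7 was -0.14 without ai_5, Srsf11 was 0.33 without ai_1, 0.14 without ai_2 and 0.14 without ai_3, and Srsf2 was 0.02 without ai_5, -0.06 without ai_8 and -0.17 without ai_2 or ai_3.

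At 24 h 0 of the 10 genes passed an adjusted p of 0.05 in the quasi-likelihood test of edgeR, Benjamini-Hochberg-adjusted over all 13752 features, of which 0% passed. Clk4 and Tra2a, both lower in Tesa-inj, were the 2 of 10 with an unadjusted p under 0.05, beside 2.71% of all features and 1.75% counted in that direction. Scaled to library totals the number was 0 of 10 (1.1% of all features), without ai_2 it was 1 (2.32%), as Tra2a left it, and without ai_1 it was 3 (2.75%), with Srsf6 added. The exact test of edgeR, DESeq2 and limma voom each called 0 of all features after adjustment and had 2 of the 10 genes at the unadjusted threshold, which 2.68%, 3.59% and 7.43% of all features passed by these tools. The median log2 fold change of the 10 genes was -0.29, against -0.02 for all features, and with library totals -0.05 against 0.19. Without ai_4 it was -0.13, without ai_5 -0.15 and without ai_6 -0.37. These counts describe the contrast by which the set was chosen.

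The measurement at 46 days took no part in that choice. Clk1, Srsf2, Srsf5 and Srsf7 had no entry in the table analysed at 46 days. Clk2, Clk3, Clk4 and Srsf11 passed the filter of more than 20 counts in at least 6 of 14 libraries, and Srsf6 and Tra2a, with 4 such libraries each, did not.

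Clk4 at 46 days ran from 4.70 CPM over a median of 8.36 to 17.5 in Tesa-inj, and from 4.38 over a median of 7.34 to 10.2 in Vehicle-inj. The groups overlapped, and the highest value belonged to the shallow library KG8-02, where it rests on 15 counts. The log2 fold change was 0.20 (SE 0.26, 95% interval -0.34 to 0.75), and the quasi-likelihood test gave an unadjusted p of 0.440. Without KG8-02 it was -0.01, without KG8-04 0.11 and without KG8-06 0.09, and without KG8-02 and KG8-12 it was 0.01. Within libraries KG8-01 to KG8-10 it was 0.31.

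Clk2 ran from 17.4 CPM over a median of 47.7 to 63.6 in Tesa-inj, and from 46.4 over 51.3 to 61.25 in Vehicle-inj. The lowest value was that of library KG8-12, on 44 counts, and no other library of that group was under 39.3 CPM. The log2 fold change of Clk2 was -0.16 (SE 0.22, 95% interval -0.63 to 0.31), at an unadjusted p of 0.482 by edgeR. It was -0.05 without KG8-12, -0.29 without KG8-05, -0.04 without KG8-02 and KG8-12, and 0.04 within libraries KG8-01 to KG8-10. Clk3 ran from 13.4 CPM over 15.2 to 22.8 in Tesa-inj and from 13.7 over 16.2 to 18.6 in Vehicle-inj. Its log2 fold change was 0.04 (SE 0.15, 95% interval -0.27 to 0.35), at an unadjusted p of 0.779 by edgeR. Clk3 thus had the narrowest interval of the 4 tested genes, the sign of its log2 fold change turned without library KG8-03 (-0.0072) or KG8-05 (-0.08), and the value was 0.17 within libraries KG8-01 to KG8-10.

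Srsf11 ran from 4.66 CPM over a median of 8.03 to 10.7 in Tesa-inj and from 5.27 over 6.485 to 8.34 in Vehicle-inj at 46 days. Its log2 fold change was 0.22 (SE 0.19, 95% interval -0.17 to 0.62), at an unadjusted p of 0.249 by edgeR, a difference within the spread between libraries. It was 0.12 without KG8-12, whose 10.7 CPM rest on 27 counts, 0.15 without KG8-09 and 0.08 within libraries KG8-01 to KG8-10. Srsf6 had 0 counts in KG8-12 and at most 4.66 CPM, on 4 counts in KG8-02, in Tesa-inj, and 1.05 to 2.95 CPM in Vehicle-inj, with a median of 12.5 counts over all 14 libraries. Tra2a had 0 counts in Tesa-inj libraries KG8-02 and KG8-04, at most 2.37 CPM in that group, and 1.415 to 2.28 in Vehicle-inj, with a median of 16 counts over all 14 libraries. Fitted with no count filter, the log2 fold change was -0.28 (SE 0.43) for Srsf6 and -0.29 (SE 0.41) for Tra2a.

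**Figure D2:**
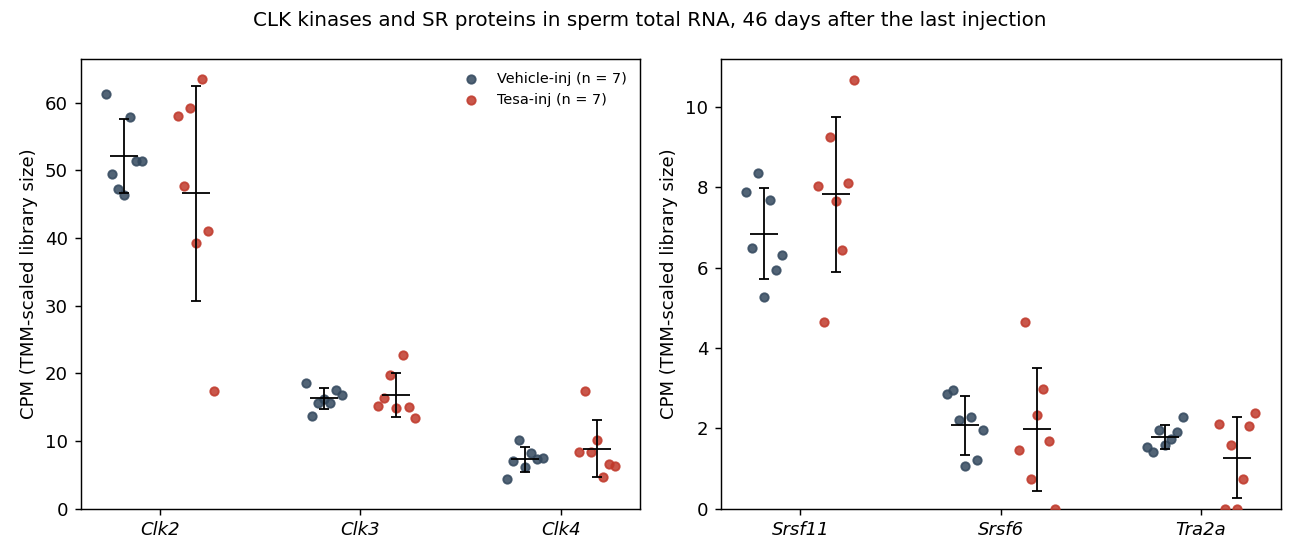
CPM (y axes, TMM-scaled) of the 6 genes present at 46 days in each sperm library, with the mean and SD of each group (n = 7 and 7). The groups overlap for each gene; the low Clk2 point of 17.4 CPM is library KG8-12 and the high Clk4 point of 17.5 CPM is library KG8-02.

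At 46 days, by the quasi-likelihood test, 0 of the 4 tested genes passed an adjusted p of 0.05 (0% of all 2866 features) and 0 of 4 had an unadjusted p under 0.05, against 5.30% of all features. The exact test of edgeR, DESeq2 and limma voom likewise gave 0 of 4 at either threshold, while over all features the exact test called 13, and DESeq2 and voom 0. At the unadjusted threshold these tools had 6.07%, 4.71% and 5.76% of all features. The median log2 fold change of the 4 genes was 0.12, against -0.03 over all features. It was 0.01 without KG8-02, 0.08 without any one of KG8-03, KG8-04 and KG8-05, and 0.07 without KG8-06. Without KG8-02 and KG8-12 that median was 0.04, with 0.06 for Clk3 and 0.17 for Srsf11. Scaled to library totals, the median of all features fell to -1.09 and that of the 4 genes to -1.15, so the members followed the shift of the scale, and the signs of Clk3, Clk4 and Srsf11 turned with it.

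The difference between the effects at 46 days and 24 h was fitted in a single edgeR model on the 2680 features that passed both filters. It was 0.77 (SE 0.38) for Clk4, -0.36 (SE 0.34) for Clk2, -0.21 (SE 0.24) for Clk3 and -0.19 (SE 0.30) for Srsf11 on the log2 scale, with TMM factors taken over these features, whose median difference was 0.08. Of these 4 genes 0 passed an adjusted p of 0.05 (0% of all features) and 0 an unadjusted one (4.81% of all features). The number at the unadjusted threshold became 1, Clk4, without any one of ai_2, ai_7, KG8-05, KG8-08 and KG8-12, where its difference was 0.86, 0.95, 0.89, 0.87 and 0.82. That of Srsf11 was -0.017 without ai_2, -0.30 without ai_1, -0.11 without ai_3 and -0.08 without KG8-02, that of Clk3 was -0.36 without ai_2 and -0.11 without ai_4, and that of Clk2 was -0.21 without KG8-12. With the TMM factors of each time point, as in the effects above, all 4 values were higher, as was the median of all features (0.29): 0.99 (SE 0.37) for Clk4, -0.12 (SE 0.36) for Clk2, 0.04 (SE 0.27) for Clk3 and 0.0098 (SE 0.28) for Srsf11, so the signs of Clk3 and Srsf11 depend on the scaling. At these factors 0 of 4 passed an adjusted p by edgeR (0 of all features), and 1, Clk4, an unadjusted one, beside 8.17% of all features. The term includes the contrast at 24 h, so the value for Clk4 is a description.

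Co-variation at 24 h was first described over all 8 libraries, where the difference between the groups enters each value. On log2 CPM, Pearson's r of Clk4 with the 9 other genes ran from -0.26 with Srsf11 to 0.87 with Tra2a, with a median of 0.44 against 0.05 for the other 13742 features. Pairs that both lie lower in Tesa-inj have a high r in such a comparison, so deviations from the group means were used next.

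On deviations from the group means, which do not contain the contrast, the median r of Clk4 with the 9 genes was 0.24, against 0.09 for all other features. The highest was r = 0.72 with Tra2a (Spearman's rho = 0.52, two-sided exact permutation within groups, p = 0.132 for r and p = 0.271 for rho, n = 8). Adjusted by Benjamini-Hochberg over the 9 correlations, these permutation p-values were 0.594 and 0.469. Without ai_7 and ai_1, the libraries farthest from the median of Clk4, r with Tra2a was 0.02, so the relation rests on that pair. With Srsf7, Clk4 had r = 0.54 (rho = 0.62, exact permutation p = 0.399 and p = 0.182), and with Srsf2 r = 0.47 (rho = 0.74, exact permutation p = 0.415 and p = 0.122). Without ai_7 and ai_1 these were 0.80 and 0.77, and r with Srsf6 went from 0.04 to 0.66. Each r without both libraries kept the group means of all 8, so a part of the contrast can remain in it. Left out singly, with group means taken anew, the 2 libraries moved r in opposite directions. Without ai_7 it was 0.235 with Srsf7 and -0.372 with Srsf6, and without ai_1 it was 0.857 and 0.931. The lowest of the 9 was that with Clk2, r = -0.42 (rho = -0.43, exact permutation p = 0.0955, the smallest of the 9 for r, and p = 0.240), which was -0.235 without ai_7 and ai_1 and -0.683 without ai_2. None of the 9 correlations passed an adjusted p of 0.05 on this scale. With library totals in place of TMM, 2 of them did, with Srsf2 (r = 0.90, rho = 0.88, adjusted exact permutation p = 0.0312 for r and 0.0938 for rho) and with Srsf11 (r = 0.89, rho = 0.95, adjusted exact permutation p = 0.0469 and 0.0938), where all features were correlated with Clk4 at a median r of 0.53.

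Among all 45 pairs of the 10 genes, the highest r on deviations at 24 h was that of Srsf2 and Srsf7, at 0.92 (rho = 0.69, two-sided exact permutation within groups, p = 0.0295 and p = 0.0903, n = 8), a pair named after its values were seen. Over the 45 pairs the adjusted permutation p-values were 0.848 and 0.911. Without ai_5 and ai_2, with the group means of all 8 libraries kept, r was 0.30. Both genes were lowest in ai_5 among the Tesa-inj libraries, with 34.6 CPM for Srsf2 and 7.34 for Srsf7, and lowest in ai_2 among the Vehicle-inj libraries, with 40.3 and 14.5 CPM. Of all other features, 1.07% had a higher r with Srsf2. Of the 45 pairs 2 had an unadjusted permutation p under 0.05 for r. The other was Clk2 with Srsf11, in the opposite direction, at r = -0.77 (rho = -0.71, exact permutation p = 0.0382 and p = 0.0781, adjusted permutation p = 0.848 and p = 0.911). Its r was -0.67 without ai_2 and ai_6, again on the group means of all 8 libraries, and 0.006 on library totals.

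At 46 days the 4 tested genes gave 6 pairs over 14 libraries. Clk2 and Clk3 varied together, with r = 0.62 and rho = 0.74 (two-sided permutation test, p = 0.0278 and p = 0.00352, n = 14). Adjusted over the 6 pairs, rho passed a threshold of 0.05 (permutation p = 0.0211) and r did not (permutation p = 0.167). Without KG8-12 and KG8-04, the libraries farthest from the median of Clk2, r was 0.63. Without the shallow KG8-02 and KG8-12, r was 0.65 and rho 0.71, and neither passed the threshold (adjusted permutation p = 0.125 and p = 0.0685, n = 12). On deviations from the group means r was 0.67 and rho 0.65 (adjusted permutation p = 0.0725 and p = 0.0883). These deviations were permuted over all 14 libraries, not within groups as at 24 h, so the p-values can be too small. Within libraries KG8-01 to KG8-10 r was 0.65 and rho 0.59 (adjusted permutation p = 0.258 and p = 0.347). An r above that of Clk3 was found for 17.5% of the other features tested against Clk2. Clk4 had r = -0.05 with Clk2, r = -0.32 with Clk3 and r = -0.27 with Srsf11, none of the 3 with a permutation p under 0.05 for r or rho. Without KG8-02 and KG8-12 these were -0.47, -0.55 and 0.35, again none with such a p, so the sign with Srsf11 turned. The r of Clk2 with Srsf11 turned as well, from -0.40 to 0.10. With library totals all 6 pairs had r from 0.93 to 0.98, while the median r of the other features with Clk2 was 0.92 (quartiles 0.876 and 0.967).

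**Figure D3:**
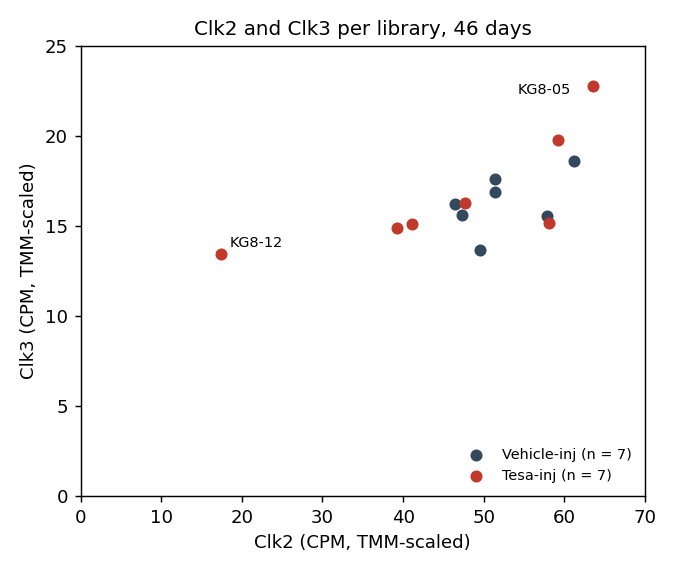
Clk2 (x axis) against Clk3 (y axis), both in TMM-scaled CPM, for the 14 sperm libraries at 46 days, coloured by group (n = 7 and 7). The points rise together (r = 0.62, rho = 0.74) from KG8-12, with 17.4 and 13.4 CPM, to KG8-05, with 63.6 and 22.8 CPM.

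The 5 features most like Clk4 at 24 h, by r on log2 CPM over the 8 libraries, were Fam73a (r = 0.978), the LINE-1 repeat family L1M2 (r = 0.962), Zfp958 (r = 0.955), Cep70 (r = 0.944) and Rybp (r = 0.942). In each of them every Tesa-inj library was below every Vehicle-inj library, which the high r with Clk4 favours. Of all tested features 1.95% were separated in this way. On library totals the groups overlapped for each of the 5, with ai_7 above a Vehicle-inj library. On that scale 0.574% of all features were separated in full. Zfp958 had 0 counts in ai_1, ai_3 and ai_5 and 0.918 CPM in ai_7, so its r rests on values at the floor. On deviations from the group means their r with Clk4 was 0.888, 0.915, 0.843, 0.729 and 0.763. Cep70, a centrosomal protein, had 9.49 CPM ± 2.81 in the Tesa-inj group and 21.6 ± 4.95 in the Vehicle-inj group (SD, n = 4 each). Rybp, a Polycomb protein, had 5.77 ± 1.49 and 10.4 ± 1.40 CPM (SD, n = 4 each).

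The wider splicing machinery was described by 4 lists. Of 33 other SR and SR-like genes, 32 were tested at 24 h and 0 had an unadjusted p under 0.05 by edgeR's quasi-likelihood test (2.71% of all features), as by the exact test, DESeq2 and limma voom, with 20 of the 32 below 0, beside 52.2% of all features, and a median log2 fold change of -0.09 against -0.02 for all features. Srsf1, the founding SR protein, had the smallest p of that list, at 23.0 CPM ± 5.74 in the Tesa-inj group and 30.2 ± 3.15 in the other (SD, n = 4 each), a log2 fold change of -0.40 (SE 0.23), or -0.23 without ai_5. Scaf8 and Srsf10 came next, with log2 fold changes of -0.47 (SE 0.28) and -0.62 (SE 0.50). Without single libraries Srsf10 was -0.29 (ai_1), -0.35 (ai_8) and -1.06 (ai_3), and Scaf8 -0.31 (ai_4). With library totals the 3 genes had -0.18, -0.25 and -0.41. The groups overlapped for these 3 genes. Without ai_2 the number at the unadjusted threshold was 1 of 32, Rbm39 (2.32% of all features).

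Of 21 other genes listed as kinases, phosphatases and related factors, 19 were tested at 24 h, with a median of -0.10. Their action on SR proteins was not examined. By the quasi-likelihood test (2.71% of all features), the exact test or limma voom 0 of the 19 had an unadjusted p under 0.05. By DESeq2 it was 1, Akt2 (3.59%), and without ai_4 by the quasi-likelihood test 1, Akt1 (2.98%). With no count filter or with filterByExpr, 20 were tested and 1, Dyrk4, had such a p (2.35% and 2.4% of all features). Dyrk2, a dual-specificity kinase, had 3.68 to 5.67 CPM in Tesa-inj, against 6.10 to 7.76 in Vehicle-inj, without overlap. Akt2 did not overlap in the other direction, with 20.8 to 26.2 CPM and 16.3 to 19.6. Ppp1cb, a catalytic subunit of protein phosphatase 1, ran from 6.04 to 11.2 and from 10.3 to 15.8 CPM. Every Tesa-inj library below every Vehicle-inj library was thus met by 1 of the 19 genes, beside the 1.95% of all features given above, and every one above by 1 of 19, beside 1.32% of all features. On library totals both genes overlapped between the groups, Dyrk2 with 3.47 to 6.68 CPM against 4.83 to 8.26, and Akt2 with 19.65 to 40.4 against 13.1 to 21.5.

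Of 38 hnRNPs and other splicing regulators, all were tested at 24 h, with a median of -0.10, and 1 had an unadjusted p under 0.05 by the quasi-likelihood test, a share near the 2.71% of all features. It was Hnrnpdl, an RNA-binding protein of the hnRNP D family, which ran from 7.92 to 15.9 CPM in the Tesa-inj group and from 17.5 to 20.9 in the other, a log2 fold change of -0.77 (SE 0.26), and with library totals it was -0.48 and no longer under that threshold (unadjusted p = 0.295 by edgeR). Its paralog Hnrnpd had 5.77 to 19.2 and 22.2 to 26.1 CPM (log2 fold change -0.74, SE 0.34, or -0.46 without ai_5), and these 2 of the 38 genes had every Tesa-inj library below every Vehicle-inj library, beside 1.95% of all features. On library totals both overlapped between the groups. By the exact test and DESeq2 2 of the 38 had such a p (2.68% and 3.59% of all features), Hnrnpdl and Ptbp2, which was low, with 0 to 1.18 CPM against 1.00 to 3.01, and by limma voom 4 (7.43%), with Hnrnpd and Celf1 added. By the quasi-likelihood test it was 2 without ai_1 (2.75%), ai_4 (2.98%) or ai_7 (2.00%), where Hnrnpd, Hnrnpk and Tia1 joined Hnrnpdl in turn. Of the 37 genes of the core spliceosome 0 had an unadjusted p under 0.05 by the quasi-likelihood test (2.71% of all features), the exact test or DESeq2 and 1, Snrpb2, by limma voom, and the median was -0.02, as in all features. Sf3b4, Prpf19 and Snrnp200 had the smallest p, with log2 fold changes of -0.58, 0.33 and -0.41, or -0.30, 0.59 and -0.19 with library totals. Sf3b4 was -0.26 without ai_2, and Snrnp200 -0.62 without ai_3, -0.23 without ai_4 and -0.25 without ai_5. At an adjusted p of 0.05 these lists had 0 genes by edgeR, and the other tools called 0 of all features at 24 h.

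At 46 days 4 genes of the other SR list, 4 of the kinase and phosphatase list, 8 of the hnRNP list and 4 of the spliceosome list were tested, and 1 of them, Snrnp200, a helicase of the U5 snRNP, had an unadjusted p under 0.05 by the quasi-likelihood test, as by the exact test, beside 5.30% of all features. It was measured at 39.1 CPM in library KG8-12 and at 3.61 to 4.70 in the other 6 Tesa-inj libraries, against 3.01 to 4.59 in Vehicle-inj. The log2 fold change of 1.30 (SE 0.52) was 0.18 without KG8-12 and -0.43 with library totals. DESeq2 gave 0.24 and limma voom 0.25, neither with an unadjusted p under 0.05. By the quasi-likelihood test the spliceosome list had 2 such genes without KG8-02, with Sf3b1 added (5.83% of all features). It also had 2 with no count filter or with filterByExpr, with Sf3b3 added (5.52%). The number was 0 without KG8-12 (3%), with library totals (7.19%) and within libraries KG8-01 to KG8-10 (2.69%).

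Markers of other cells were examined beside these values. At 24 h the summed level of 16 leukocyte markers, of 17 listed, was 2206, 1376, 2272 and 2645 CPM in Tesa-inj libraries ai_1, ai_3, ai_5 and ai_7, and 1838, 1285, 2141 and 1612 CPM in Vehicle-inj libraries ai_2, ai_4, ai_6 and ai_8. The sums overlapped, Cd52, which the epididymis also expresses, was the most abundant with a mean of 1644 CPM, and Cd3e had no entry. Without Cd52 the sums were 216.4 to 316.6 CPM in Tesa-inj, against 212.2 to 421.8 in Vehicle-inj. Fitted values were lower in Tesa-inj for 10 of the 16 leukocyte markers, with a median log2 fold change of -0.20. By the quasi-likelihood test 1 of the 16 had an unadjusted p under 0.05, higher in Tesa-inj, beside 2.71% of all features. For 1 of the 16 every Tesa-inj library was above every Vehicle-inj library, beside 1.32% of all features. The 13 epididymal markers of 21 listed summed to 1301 to 1977 CPM in Tesa-inj and 1317 to 2934 in Vehicle-inj, with Crisp1 highest at a mean of 641.0 CPM. The 16 markers of late spermatids and sperm summed to 8872 ± 2911 and 8930 ± 3678 CPM (SD, n = 4 each), led by Odf1. Their part in the Clk4 values was not tested. Sums for 4 red blood cell, 6 smooth muscle and 2 Sertoli and Leydig cell markers, of 6, 6 and 10 listed, also overlapped between the groups. The fitted values were lower in Tesa-inj for 4 of the 4 red blood cell markers (median log2 fold change -0.35) and for 1 of the 6 smooth muscle markers (median 0.67), beside 52.2% and a median of -0.02 for all features. They were lower for 5 of the 13 epididymal markers (median 0.09) and 0 of the 2 Sertoli and Leydig cell markers (median 0.42). Of the germ cell markers tested, 3 of 6 early ones (median -0.19) and 9 of 16 late ones (median -0.02) were lower. The smooth muscle sum was 85.3 CPM in ai_5 and 27.6 to 32.3 in the other Tesa-inj libraries, with 16.7 to 45.5 in Vehicle-inj. The Sertoli and Leydig sum was highest in ai_5 as well, at 1208 CPM, with 801.5 in ai_7 and 379.3 to 610.8 in the other 6. Of its 2 genes Clu, with a mean of 590.4 CPM, made up nearly all of it. Without Clu the sums were 1.557 to 4.502 CPM in Tesa-inj, against 1.504 to 4.125 in Vehicle-inj. Library ai_5 was also the lowest of all 8 for Srsf2, Srsf5, Srsf6, Srsf7 and Hnrnpd. The 7 of 11 spermatogonium and spermatocyte markers present summed to 14.1 ± 6.70 and 16.7 ± 4.09 CPM (SD, n = 4 each). At 46 days 0 markers of leukocytes, epididymis, blood, smooth muscle or Sertoli and Leydig cells had an entry, 1 of 11 early germ cell markers did, and 14 of 16 late spermatid and sperm markers summed to 746.6 ± 181.9 CPM in Tesa-inj, against 751.8 ± 181.5 in Vehicle-inj (SD, n = 7 each).

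The 10 genes lie on 8 chromosomes of the GRCm38.p6 assembly, by RefSeq. Clk4 spans chr11:51263114-51281770 and shares 549 bases with BC049762, and Tra2a spans chr6:49243921-49264248 with no overlapping gene. Srsf2 (chr11:116849897-116853675) shares 1465 bases with Mfsd11, whose log2 fold change at 24 h was 0.05 (SE 0.25), and Clk2 (chr3:89164795-89177087) lies within Gm45927. BC049762 and Gm45927 had no entry in either table, so how reads in shared bases were divided could not be examined.

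The 250 bases before the start were read from RefSeq promoter sequences for 9 of the 10 genes, with a second start for Srsf11 (Clk1 had no entry), and 6 motifs were searched on both strands. The cAMP response element TGACGTCA was found in the windows of Clk4 and Tra2a and in none of the other 7 genes, and in 1.55% of 32851 promoters. These 2 genes had the lowest log2 fold changes at 24 h, which were known when the motifs were chosen. Its first 5 letters, TGACG, which overlap it, were found in 7 of the 9 genes (17.8% of promoters), CCAAT in 3 (33.8%) and TATAAA in 1 (12.4%). TGACG and TGACGTCA contain a CpG, and the 10 promoter windows of the 9 genes held a median of 21.5 CpG and 62.6% GC, against 6.0 and 52.4% in all promoters, so those shares come from windows of another base composition. AGGTCA, the half-site of nuclear receptors, was found in 0 of the 9 (14.0% of promoters), and the direct repeat of AGGTCA spaced by 1 base, the form bound by PPAR with RXR, in 0 (0.0335%). A match is a description of the letters and not evidence of binding. The 30 bases around both elements are shown because these 2 genes hold the element, the 8 letters in capitals, with different bases around it. Those of Clk4 come from chr11:51263038-51263067 on the + strand, where the element begins 65 bases before the start of Clk4, inside the annotated gene BC049762. Those of Tra2a come from chr6:49264061-49264090 on the - strand, where it begins 27 bases before the start used for Tra2a, inside the annotated Tra2a gene.
Clk4: cccgccgtcccTGACGTCAcagacccctcg
Tra2a: ggtccgcccctTGACGTCAggcgccgggga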

How the data were processed

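The authors quantified the reads with Salmon 0.11.2 on GENCODE transcripts, piRNA precursors and repeat families, and deposited the estimated counts, not normalized. These were rounded, scaled by TMM over all features and tested with the quasi-likelihood test of edgeR 4.0.16 (R 4.3.3), with Benjamini-Hochberg adjustment over every feature that exceeded 20 counts in 4 or more libraries at 24 h, or in 6 or more at 46 days. Correlations used log2 CPM with a prior count of 2 and exact permutation at 24 h (576 arrangements within groups) or 100000 permutations, not within groups, at 46 days. Alternatives were the exact test, DESeq2 1.42.0, limma 3.58.1 voom, other scalings and filters, and single libraries left out. Correlations on deviations, pairs of libraries left out, a second scaling of the joint model of both time points, and the other scales of the correlations at 46 days were chosen after seeing the data. Named genes were the members, the 5 features most like Clk4, and in each list the 3 with the smallest p at 24 h and any with an unadjusted p under 0.05 at 46 days. Genes of the lists that passed an unadjusted p of 0.05 in an alternative given in the text were named there. The members and lists (SR proteins, kinases and phosphatases, hnRNPs, spliceosome, cell type markers) were chosen with earlier results of these data known. P-values of the contrasts set the difference between groups against the spread between libraries. The serum table was not used.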

Additional observations from a re-analysis of the deposited data

Results flagged for a closer look

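In 32 groups of values, each the log2 CPM of 1 gene in 1 group of libraries, the library farthest from the rest was compared with the range of its group, by a criterion that chance meets in about 1 in 20 groups. It was met by 2 of the 32. Clk1 at 24 h had 18.82 CPM in Vehicle-inj library ai_6, while the other 3 libraries of that group had 32.35 to 33.84. Clk2 at 46 days had 17.39 CPM in Tesa-inj library KG8-12, on 44 counts, while the other 6 libraries of that group had 39.29 to 63.58.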

How the results depend on the processing

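Over 46 results and 906 alternatives, 880 values kept their direction and 26 changed it. At both time points 0 members passed an adjusted p in every alternative run. The causes of the changes were not tested.

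With library totals in place of TMM, 0 members had an unadjusted p under 0.05 at 24 h, and the log2 fold change became 0.027 for Clk1, 0.21 for Clk2 and 0.10 for Srsf2. At 46 days the same scaling gave a members' median of -1.15, with -1.12 for Clk3, -1.18 for Clk4, -0.82 for Srsf11 and -0.43 for Snrnp200, beside a median of -1.09 over all features, and 6 of 6 correlations passed an adjusted p. With limma voom Clk2 was 0.18 at 24 h and Clk4 -0.012 at 46 days. With no count filter or with filterByExpr, which add Srsf6 and Tra2a, the median at 46 days was -0.057. Within libraries KG8-01 to KG8-10 Clk2 was 0.038, and without both ai_1 and ai_7 Clk3 was -0.038 at 24 h. With the TMM factors of each time point, the difference between 46 days and 24 h became 0.041 for Clk3 and 0.0098 for Srsf11.

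Of the 9 correlations of Clk4 over all 8 libraries, which contain the contrast, 1 passed an adjusted p; on deviations from the group means the number was 0, and with 1 library left out it was 0 (without ai_4) to 1. With 1 library left out, 1 to 3 members had an unadjusted p under 0.05 at 24 h, beside 1.85% (without ai_8) to 4.2% (without ai_3) of all features, and the log2 fold changes ran from -0.16 to 0.26 for Clk2, -0.12 to 0.28 for Clk3 and -0.17 to 0.022 for Srsf2. At 46 days they ran from -0.082 to 0.072 for Clk3 and from -0.0065 to 0.28 for Clk4. There 0 of the 4 tested members had an unadjusted p under 0.05 with 1 library left out. The share of all features ran from 3% (without KG8-12) to 7.26% (without KG8-04). No paired analysis was possible because the labels give no pairs. Counts per gene do not separate isoforms, so splice forms of the members were not examined. In simulated counts, 200 features drawn at random from all those tested were given a log2 change of 2. Of them, 37.5% were called at 24 h and 99.5% at 46 days. The shares average over features of every level, so they are not read as detection rates of the 10 genes. For the 10 genes themselves the 95% intervals at 24 h lay between -1.97 (Tra2a) and 0.69 (Srsf11) in the main fit. Without ai_7 the log2 fold change of Tra2a was -1.35. These intervals belong to the contrast by which the set was chosen, so no limit is read from them. At 46 days Srsf6 and Tra2a had too few counts for the filter.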
